A study of Homo sapiens with 23 samples.

Results

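The genes described here are 10 members of 2 families that act in sequence on reactive and foreign compounds: the aldo-keto reductases AKR1A1, AKR1B1, AKR1B10, AKR1C1, AKR1C2 and AKR1C3, and the transporters ABCC1, ABCC2, ABCC3 and ABCC4. They were followed through the array probes that the platform annotation pairs with these symbols. The annotation listed 12 probes for 7 of the 10 genes. AKR1A1, AKR1B1 and ABCC1 had no probe listed and were not analysed here. A probe was used where its detection p-value, which sets its signal against the negative controls of the same array, was under 0.05 on 5 or more of the 23 arrays. Of the 12 probes 10 passed, and they left 6 genes for testing, AKR1B10, AKR1C2, AKR1C3, ABCC2, ABCC3 and ABCC4, among 10954 genes tested in all. The only AKR1C1 probe did not pass.

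All arrays measured total RNA from MCF10A, an immortalised and non-tumorigenic line of human mammary epithelial cells. The 4 groups were MCF10A/ErbB2* cells in 3D culture (6 arrays), the same ErbB2* cells in 2D culture (6 arrays), WT MCF10A cells in 3D culture (5 arrays) and WT MCF10A cells in 2D culture (6 arrays). ErbB2 (HER2) is a receptor tyrosine kinase of the EGF receptor family, and the labels do not describe the engineered form marked by the asterisk, its promoter, the number of clones, the 3D medium or the days in culture. The labels do not state whether replicates were grown separately, and the p-values then cover only array-to-array spread, which may be technical. The comparisons ask how the ErbB2* line differs from WT within each culture form, how 3D differs from 2D within each line, and whether the culture change differs between the lines.

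Aldo-keto reductases use NADPH to reduce aldehydes and ketones to alcohols. AKR1B10 reduces retinals and lipid aldehydes, and the AKR1C enzymes reduce keto groups of steroids and prostaglandins, AKR1C3 being the form that makes testosterone from androstenedione. ABCC proteins are ATP-driven pumps that export organic anions, above all conjugates with glutathione, glucuronate or sulfate. Many genes of both families are known targets of NRF2 (encoded by NFE2L2), a transcription factor that KEAP1 holds back until electrophiles or oxidants release it. NRF2 binds antioxidant response elements together with small MAF proteins.

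The AKR1C genes lie side by side on chromosome 10 and are close in sequence, which bears on how far a probe can tell their transcripts apart. The letters below show how close the starts of these genes are. Each window runs from 250 bases before the annotated gene start to 50 bases after it, 5′ to 3′ on the gene's own strand, from RefSeq on build GRCh38.p14. Most of each window thus lies before the transcript, so these windows do not measure how alike the transcripts or their probes are. Capitals in the first line mark letters that differ from AKR1C2 or are missing there, capitals in the second mark differences from AKR1C1, and capitals in the third mark differences from AKR1C1. They lie at chr10:4963165-4963464 on the plus strand (AKR1C1), chr10:5003808-5004107 on the minus strand (AKR1C2) and chr10:5048531-5048830 on the plus strand (AKR1C3, 1 of the 2 starts in the table).
AKR1C1: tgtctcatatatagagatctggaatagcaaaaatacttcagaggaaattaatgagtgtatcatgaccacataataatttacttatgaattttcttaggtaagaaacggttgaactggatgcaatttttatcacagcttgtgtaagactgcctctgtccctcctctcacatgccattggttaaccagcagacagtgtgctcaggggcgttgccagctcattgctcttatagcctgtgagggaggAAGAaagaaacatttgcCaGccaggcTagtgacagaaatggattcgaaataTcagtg
AKR1C2: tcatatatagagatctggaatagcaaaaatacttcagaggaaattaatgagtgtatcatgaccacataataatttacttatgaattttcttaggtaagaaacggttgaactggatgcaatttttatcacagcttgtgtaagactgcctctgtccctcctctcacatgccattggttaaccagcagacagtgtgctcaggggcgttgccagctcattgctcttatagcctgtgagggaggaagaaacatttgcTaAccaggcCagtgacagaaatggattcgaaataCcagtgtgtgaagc
AKR1C3: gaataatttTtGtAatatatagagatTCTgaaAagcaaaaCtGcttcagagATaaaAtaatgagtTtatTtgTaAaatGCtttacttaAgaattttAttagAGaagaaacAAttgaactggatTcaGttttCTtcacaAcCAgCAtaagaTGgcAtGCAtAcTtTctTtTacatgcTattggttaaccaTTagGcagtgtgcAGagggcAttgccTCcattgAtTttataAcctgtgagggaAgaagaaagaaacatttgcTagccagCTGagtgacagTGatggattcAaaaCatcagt
In a global alignment the AKR1C1 and AKR1C2 windows were identical at 288 of 292 aligned bases (98.6%), with 4 substitutions. The AKR1C1 and AKR1C3 windows were identical at 227 of 291 aligned bases (78.0%). The box CCAAT, searched on both strands, was found in each of the 3 windows, beginning 77 bases before the start in AKR1C1 and 81 bases before it in AKR1C2, and it occurs in 34.6% of 35116 RefSeq windows of the same length. The core of the antioxidant response element, written TGACNNNGC and searched on both strands, was in none of these 3 windows. It was in 13.3% of all windows and, among the 7 members with a window, in that of ABCC4. AKR1B10, ABCC1 and ABCC3 had no window. Sequence outside the windows was not searched, so a missing core here does not show that a gene lacks the element. Sequences of the array probes were not used here, so the share of signal that an AKR1C probe takes from a neighbouring gene was not tested.

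The arrays had features that touch the results. WT 3D replicate 5 carries an ErbB2* cell line label against its title, and it stands apart in quality: 19.1% of its probes were detected and its mean scanner signal was 150.6, against 30.9% to 34.6% of probes and mean signals of 333.6 to 581.6 on the other 22 arrays. It was kept in the WT 3D group, and each member's changes were also computed without it. The WT 2D arrays fell into 2 sets, replicates 1, 5 and 6 and replicates 2, 3 and 4, whose deviations from the group mean correlated at -0.54 to -0.38 between the sets and at 0.12 to 0.24 within them. ERBB2 itself did not pass the test between the lines, with mean log2 signals of 8.67 ± 0.118 in ErbB2* 2D and 8.68 ± 0.136 in WT 2D cells (SD, n = 6 each; limma adjusted p = 0.991), so this probe does not check the label, and whether it reads the engineered transcript is not known from the labels. In these bulk samples, fewer cells of a type and less RNA per cell cannot be told apart.

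AKR1B10 had the widest range of the 6 tested members: its group means spanned 3.25 log2 units. The values are background-corrected, quantile-normalised log2 signals, in which 1 unit is a factor of 2, and they cannot be set against another probe's. In ErbB2* 3D cells AKR1B10 lay between 9.73 and 10.34 (median 9.95), and in ErbB2* 2D cells between 8.43 and 9.06 (median 8.89). WT 3D cells gave 9.02, 8.98, 8.91, 8.89 and 8.97 in replicates 1 to 5, and WT 2D cells gave values from 6.37 to 7.06 (median 6.71). The ErbB2* 3D arrays stood above all others and the WT 2D arrays below all others, while ErbB2* 2D and WT 3D overlapped. AKR1B10 was 4.37-fold higher in ErbB2* than in WT cells in 2D (log2 change 2.13, SE 0.123, limma adjusted p = 7.98e-12), and 35 of the 10954 tested genes had a higher change. In 3D the difference between the lines was 2.03-fold (log2 change 1.02, SE 0.129, adjusted p = 2.26e-06). Culture in 3D rather than 2D went with a 2.17-fold higher signal in ErbB2* cells (log2 change 1.12, adjusted p = 3.14e-07) and a 4.67-fold higher signal in WT cells (log2 change 2.22, adjusted p = 7.93e-12).

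AKR1C3 was also highest in ErbB2* 3D and lowest in WT 2D cells, with smaller steps between the groups. Its log2 signal lay between 13.89 and 14.27 (median 14.12) in ErbB2* 3D cells and between 13.36 and 13.91 (median 13.62) in ErbB2* 2D cells. WT 3D cells gave 13.51, 13.58, 13.60, 13.51 and 13.72, and WT 2D cells 12.34 to 12.78 (median 12.48). The WT 2D arrays were below every other array, and the ErbB2* 3D and 2D arrays overlapped by 1 array of each group. AKR1C3 rose 2.24-fold in ErbB2* against WT cells in 2D (log2 change 1.16, SE 0.101, adjusted p = 8.92e-09) and 1.42-fold in 3D (log2 change 0.50, SE 0.106, adjusted p = 0.00125). The 3D against 2D change was 0.44 in ErbB2* cells (adjusted p = 0.0026) and 1.10 in WT cells (adjusted p = 4.02e-08).

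AKR1C2 rests on 1 bright probe out of 5. On that probe the log2 signal was 14.77 to 14.83 (median 14.79) in ErbB2* 3D cells and 14.58 to 14.84 (median 14.76) in ErbB2* 2D cells. WT 3D cells gave 14.51, 14.64, 14.81, 14.58 and 14.81, and WT 2D cells 13.90 to 14.06 (median 13.99). The 3 groups other than WT 2D overlapped, and WT 2D lay below all of them. AKR1C2 was 1.70-fold higher in ErbB2* than in WT cells in 2D (log2 change 0.76, SE 0.0731, adjusted p = 4.32e-08), and WT cells had 1.61-fold more in 3D than in 2D (log2 change 0.68, adjusted p = 3.96e-07). Neither the difference between the lines in 3D (log2 change 0.12, 95% interval -0.04 to 0.28, adjusted p = 0.260) nor the culture change in ErbB2* cells (0.05, interval -0.11 to 0.20, adjusted p = 0.744) passed the test. This probe ranked between 35 and 90 by signal among the 48803 probes of each ErbB2* or WT 3D array, and between 153 and 178 on the WT 2D arrays. It thus lay near the top of the normalised scale in 3 of the groups, and the part of that position in the 2 small changes was not tested.

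The other AKR1C2 probes were dim. They were detected on 18, 8, 5 and 0 arrays, and none exceeded a scanner signal of 190.7, while the bright probe read 10624 to 34235. A fit over all passing probes called 9.96% of them between the lines in 2D, 17.6% between the lines in 3D and 17.9% between cultures in ErbB2* cells. In this fit ILMN_1773417, the probe detected on 18 arrays, rose in ErbB2* against WT cells in 2D, as the bright probe did (log2 change 0.83, SE 0.233, adjusted p = 0.0209). It was detected on 2 of 6 WT 2D arrays and the groups overlapped, so this size depends on WT signals near background. Its group means had the order of the bright probe's, with 5.93 in ErbB2* 3D, 5.89 in ErbB2* 2D, 5.54 in WT 3D and 5.06 in WT 2D cells, and its other changes did not pass. ILMN_1668617 (-0.01, adjusted p = 0.994) and ILMN_1719154 (0.18, adjusted p = 0.555) were not called between the lines in 2D. Each was detected on 1 of 6 ErbB2* and 0 of 6 WT arrays there. ILMN_1719154 was called in ErbB2* against WT cells in 3D (adjusted p = 0.0044), with 4 of 6 ErbB2* and 0 of 5 WT arrays above background. Against the lowest detected signal of each WT array the ErbB2* mean was not higher, so no fold can be given for it. The same probe was called in 3D against 2D in ErbB2* cells (log2 change 0.50, adjusted p = 0.0111), with 4 of 6 3D and 1 of 6 2D arrays above background. With all passing AKR1C2 probes averaged, AKR1C2 was called in both of these comparisons (log2 change 0.35 with adjusted p = 0.012, and 0.29 with adjusted p = 0.0288). The AKR1C1 probe was detected on 0 of 23 arrays, with scanner signals from 81.2 to 128.4, so AKR1C1 has no measured change here.

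**Figure D1:**
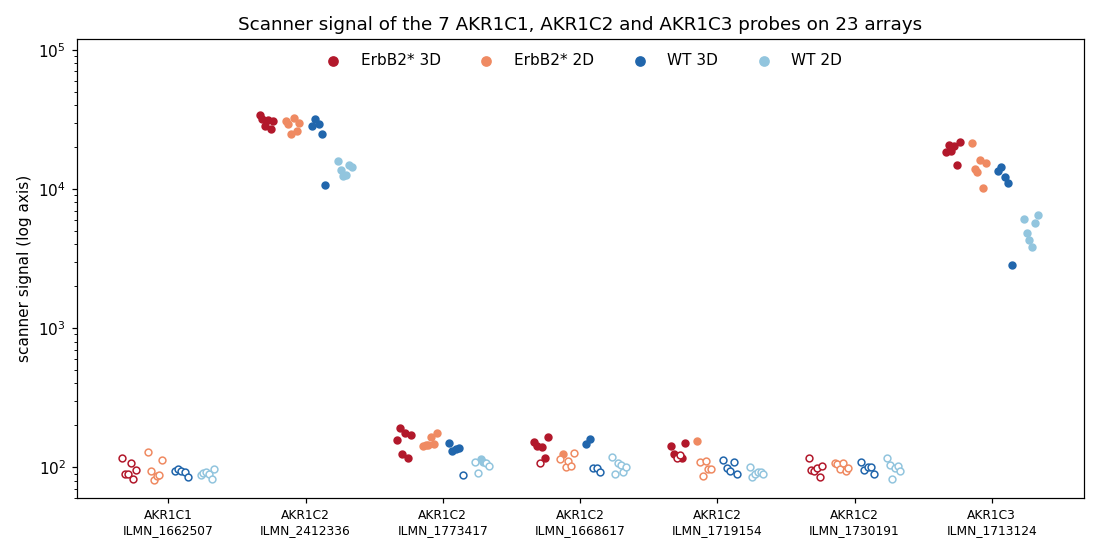
Scanner signal (log axis, before normalisation) of the 7 probes annotated to AKR1C1, AKR1C2 and AKR1C3, with 1 point per array, coloured by group; filled points have a detection p-value under 0.05 and open points do not. The AKR1C3 probe and 1 AKR1C2 probe are bright in every group, 4 AKR1C2 probes stay at or below 190.7, the AKR1C1 probe is open on all 23 arrays, and the low WT 3D point of each bright probe is replicate 5 (10624 for AKR1C2).

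ABCC2 (MRP2), which in liver exports bilirubin glucuronides into bile, was the transporter that moved most. Its log2 signal was 10.03 to 10.49 (median 10.24) in ErbB2* 3D cells and 9.15 to 9.71 (median 9.38) in ErbB2* 2D cells. WT 3D cells gave 8.52, 8.76, 8.46, 8.58 and 8.85, and WT 2D cells 7.38 to 7.50 (median 7.46). No pair of the 4 groups overlapped. ABCC2 was 3.87-fold higher in ErbB2* than in WT cells in 2D (log2 change 1.95, SE 0.102, adjusted p = 1.27e-12) and 3.10-fold higher in 3D (log2 change 1.63, SE 0.107, adjusted p = 4.96e-11). In 3D against 2D it rose 1.83-fold in ErbB2* cells (log2 change 0.87, adjusted p = 7.58e-07) and 2.28-fold in WT cells (log2 change 1.19, adjusted p = 1.26e-08).

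ABCC4 (MRP4), a pump for cyclic nucleotides and prostaglandins, had its largest change between cultures in the ErbB2* line. Its log2 signal was 8.27 to 8.79 (median 8.57) in ErbB2* 3D cells and 7.78 to 8.19 (median 7.93) in ErbB2* 2D cells. WT 3D cells gave 8.15, 8.61, 8.03, 8.06 and 8.09, and WT 2D cells 7.59 to 8.22 (median 7.91). The ErbB2* 3D arrays stood above all ErbB2* 2D and WT 2D arrays, and the other pairs of groups overlapped. ABCC4 rose 1.51-fold in 3D against 2D in ErbB2* cells (log2 change 0.59, SE 0.118, adjusted p = 6.46e-04), and the change in WT cells did not pass (0.27, interval 0.02 to 0.53, adjusted p = 0.102). These culture changes were not shown to differ between the lines (difference 0.32, limma adjusted p = 0.230). Between the lines the change was 0.36 in 3D (SE 0.124, adjusted p = 0.0368) and 0.05 in 2D (interval -0.20 to 0.29, adjusted p = 0.897). The call in 3D was lost without WT 3D replicate 5 (0.34, adjusted p = 0.0516). A second ABCC4 probe, detected on 22 arrays, gave 0.32 for it (adjusted p = 0.306) and 0.48 for the culture change in ErbB2* cells (adjusted p = 0.105), both in the same direction and neither past the threshold.

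ABCC3 (MRP3), an exporter of glucuronides and bile salts on the basolateral side of epithelia, was the flattest member. Its log2 signal was 11.49 to 11.88 (median 11.70) in ErbB2* 3D cells and 11.70 to 11.89 (median 11.77) in ErbB2* 2D cells. WT 3D cells gave 11.74, 11.48, 11.55, 11.57 and 11.57, and WT 2D cells 11.30 to 11.56 (median 11.47). The ErbB2* 2D and WT 2D arrays did not overlap, and there ABCC3 rose 1.24-fold (log2 change 0.31, SE 0.0791, adjusted p = 0.00859). The change between the lines in 3D was 0.12 (interval -0.06 to 0.29, adjusted p = 0.325). In 3D against 2D it was -0.08 in ErbB2* cells (interval -0.25 to 0.08, adjusted p = 0.536) and 0.11 in WT cells (interval -0.06 to 0.28, adjusted p = 0.320).

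**Figure D2:**
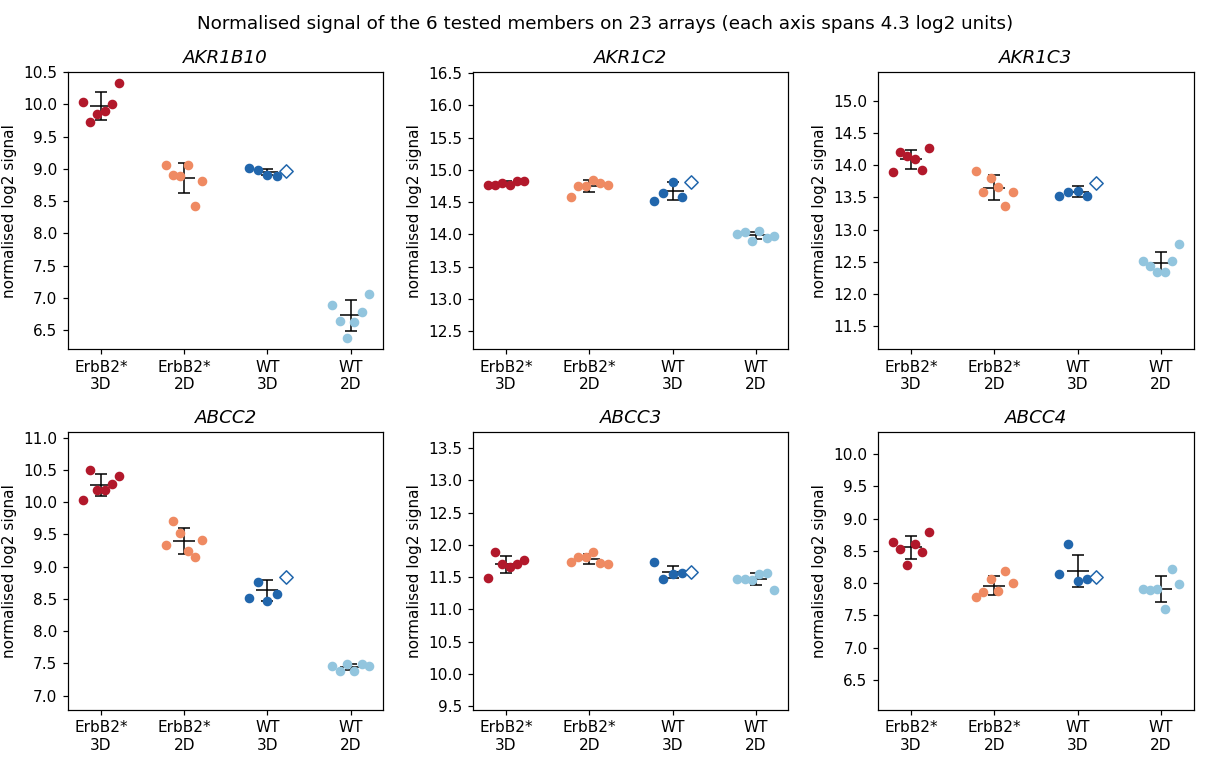
Normalised log2 signal of the 6 tested members, with 1 point per array in ErbB2* 3D, ErbB2* 2D, WT 3D and WT 2D cells; black marks are the group mean ± SD, and the open diamond is WT 3D replicate 5. Every axis spans the same number of log2 units, so AKR1B10 and ABCC2 show the widest steps, with means of 9.98 and 10.27 in ErbB2* 3D cells against 6.73 and 7.44 in WT 2D cells, and ABCC3 the narrowest.

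Set side by side, the tested members that changed between the groups changed upwards. In ErbB2* against WT cells in 2D, 5 of the 6 rose and 0 fell, where 13.1% of all tested genes were called and 7.78% rose. The median log2 change was 0.96 over the 6 members and 0.01 over all genes. In 3D, 4 of the 6 rose and 0 fell (AKR1B10, AKR1C3, ABCC2 and ABCC4), where 22.3% of genes were called and 11.6% rose, and the medians were 0.43 and 0.04. The members were chosen with earlier results of these data known, so these counts describe them and do not set them apart from other genes.

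In 3D against 2D in ErbB2* cells 4 of the 6 rose and 0 fell (AKR1B10, AKR1C3, ABCC2 and ABCC4), where 22.4% of all genes were called and 10.3% rose. The medians were 0.51 over the members and -0.02 over all genes. In WT cells 4 of the 6 rose and 0 fell (AKR1B10, AKR1C2, AKR1C3 and ABCC2), where 29.6% were called and 14.3% rose, with medians of 0.89 and -0.06. Under scaling of each array to its median in place of quantile normalisation, 0 members were called for the culture change in ErbB2* cells. With WT 3D replicate 5 also left out, median scaling called the same 4 members again (AKR1B10 at 0.94, adjusted p = 5.43e-05, and ABCC2 at 0.71, adjusted p = 3.36e-04). Under quantile normalisation that array was left out of the fit only, with the normalisation, filter and choice of probes kept from all 23 arrays. Every call of a member then held other than that of ABCC4 between the lines in 3D. Of all tested genes 23.2% and 27.7% were then called between the lines in 2D and 3D, 36.3% and 33.7% between cultures in ErbB2* and WT cells, and 21.5% in the interaction described next.

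**Figure D3:**
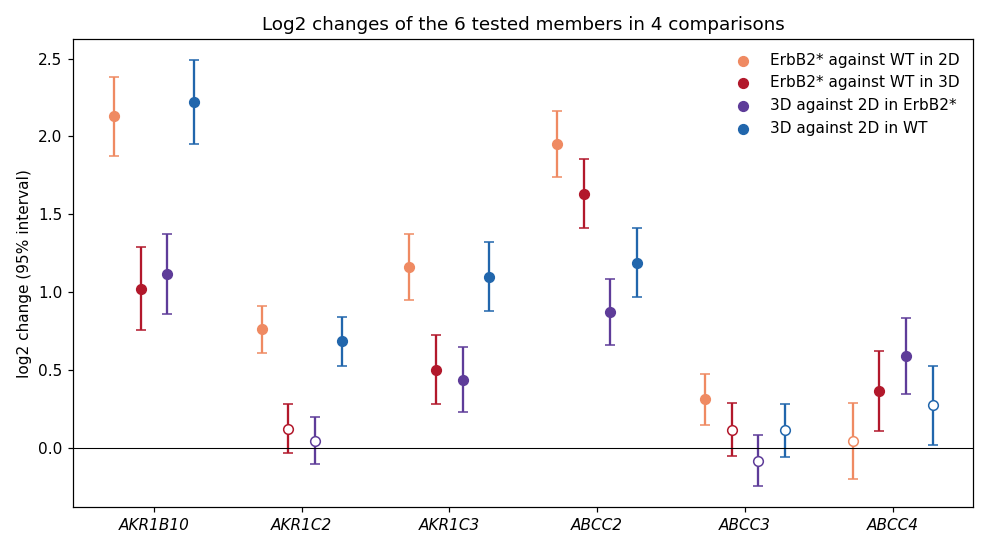
Log2 changes of the 6 tested members (vertical axis, bars are 95% intervals of the limma fit) in 4 comparisons; filled points passed an adjusted p of 0.05 and open points did not. The changes of AKR1B10, AKR1C2 and AKR1C3 between the lines in 2D (2.13, 0.76 and 1.16) and between the cultures in WT cells (2.22, 0.68 and 1.10) exceed those in the other 2 comparisons, and those of ABCC2 are 0.87 or more throughout.

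On the log2 scale the line and the culture did not add up for the reductases. The interaction is the 3D against 2D change in ErbB2* cells minus that in WT cells. It was -1.11 for AKR1B10 (SE 0.179, adjusted p = 1.18e-04), from culture changes of 1.12 in ErbB2* and 2.22 in WT cells. For AKR1C3 it was -0.66 (SE 0.147, adjusted p = 0.00308), and for AKR1C2 it was -0.64 (SE 0.106, adjusted p = 1.61e-04). The bright AKR1C2 probe lay near the top of the normalised scale in the groups other than WT 2D. The part of that position in its interaction was not tested. Thus 3 of the 6 members had a smaller culture change in ErbB2* cells and 0 a larger one, where 15.1% of all genes were called and 8.33% had a smaller change. For the transporters among the members the interaction did not pass: it was -0.32 for ABCC2 (interval -0.63 to -0.01, adjusted p = 0.161), -0.19 for ABCC3 (interval -0.43 to 0.04, adjusted p = 0.281) and 0.32 for ABCC4 (interval -0.04 to 0.67, adjusted p = 0.230). A smaller culture change in ErbB2* cells was also called outside the members, for the transporters ABCC5 and ABCB6 and the reductase AKR7A2 (values below). The AKR1C2 interaction was -0.09 (adjusted p = 0.704) with its passing probes averaged. On its dim probes it was not called, at -0.44 for ILMN_1773417 (adjusted p = 0.451), 0.31 for ILMN_1668617 (0.559) and 0.42 for ILMN_1719154 (0.195). Median scaling called 0 members, or AKR1B10, AKR1C2 and AKR1C3 again where WT 3D replicate 5 was also left out (AKR1B10 at -1.26, adjusted p = 5.38e-04).

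By group means, ErbB2* 3D was highest and WT 2D lowest for each tested member other than ABCC3, for which ErbB2* 2D was highest. The members differed in the middle groups, with WT 3D above ErbB2* 2D for AKR1B10 and ABCC4 and below it for the others with ErbB2* 3D highest. For AKR1B10, ErbB2* 2D and WT 3D differed by -0.09 (interval -0.36 to 0.17, adjusted p = 0.611) in a contrast added after the order was seen. AKR1C3 gave 0.06 for the same pair (interval -0.16 to 0.28, adjusted p = 0.675) and AKR1C2 0.08 (interval -0.08 to 0.24, adjusted p = 0.460). ABCC2 alone of the 6 was called in it, with ErbB2* 2D 1.70-fold above WT 3D (log2 change 0.76, adjusted p = 6.45e-06), where 32.4% of genes were called. For ABCC2 the order was therefore ErbB2* 3D, ErbB2* 2D, WT 3D, WT 2D, with each neighbour pair past the threshold. The steps between cultures lost the call under median scaling (0.71, adjusted p = 0.190 in ErbB2* and 0.64, adjusted p = 0.200 in WT cells). For ABCC4, ErbB2* 2D was below WT 3D by 0.23 on the log2 scale (change -0.23, interval -0.48 to 0.03, adjusted p = 0.169), and for ABCC3 it was above by 0.20 (interval 0.03 to 0.37, adjusted p = 0.0701).

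The genes most alike in pattern were found by the root-mean-square difference of the 4 centred group means, for the 3 members whose group means spanned at least 1 log2 unit. For AKR1B10 they were PPP2R2C (0.255), ADGRG2 (0.355) and AKR1B15 (0.366), and for ABCC2 they were PPP2R2C (0.171), AKR1B15 (0.228) and CLIC2 (0.296). For AKR1C3 they were SLC44A1 (0.0303), NRG4 (0.0342) and NAV1 (0.0870). AKR1B15 is the nearest relative of AKR1B10 in sequence, and signal shared between their probes was not tested. Its probe was detected on all 12 ErbB2* arrays, on 4 of 5 WT 3D arrays and on 0 of 6 WT 2D arrays, so its likeness to AKR1B10 and ABCC2 rests in part on a WT 2D mean that is only a bound. AKR1B15 was at least 2.16-fold higher in ErbB2* than in WT cells in 2D (adjusted p = 1.78e-05), the WT signal being bounded by the lowest detected signal of each array. In 3D it rose by 1.40 log2 units (adjusted p = 2.62e-05).

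Few other genes of the families were tested, and those called between the lines were mixed in direction. Their counts stand beside 13.1% of all genes called between the lines in 2D and 22.3% in 3D. Between cultures 22.4% were called in ErbB2* and 29.6% in WT cells, and in the interaction 15.1%. With 3 to 5 genes tested per list, the genes are too few to be set apart from these shares. Of 5 other tested AKR genes, 1 rose in ErbB2* against WT cells in 2D, and 1 rose and 1 fell in 3D. AKR7A2, which reduces aflatoxin dialdehyde, was the gene that fell, by 0.45 on the log2 scale (adjusted p = 0.00328). AKR1C4, named after its values were seen, was not called. Its ErbB2* arrays lay above the WT arrays in 2D (log2 change 1.16, adjusted p = 0.276) and in 3D (1.43, adjusted p = 0.126). Without WT 3D replicate 5 it was called in 2D (adjusted p = 2.50e-11) and in 3D (0.30, adjusted p = 0.0108). Then 2 of the 5 rose in 2D, and 2 rose and 1 fell in 3D, where 23.2% and 27.7% of all genes were called. Of 4 other tested ABCC genes, 0 were called between the lines in 2D and 1 fell in 3D: ABCC5, an exporter of cyclic nucleotides, fell by 0.63 (adjusted p = 0.0036). ABCC5 rose in 3D against 2D in both lines, by 0.71 in ErbB2* cells (adjusted p = 7.45e-04) and by 1.50 in WT cells (adjusted p = 7.63e-08). Of 7 other drug-export ABC genes 3 were tested, of which 0 were called between the lines in 2D and 2 fell in 3D (ABCC5 and ABCB6, a porphyrin transporter, which fell by 0.65, adjusted p = 0.0085). ABCB1, ABCB4, ABCB11 and ABCG2 had no passing probe. In 3D against 2D, 1 of the 5 AKR genes rose and 1 fell in ErbB2* cells, and 2 rose and 0 fell in WT cells. Of the 4 ABCC genes 2 rose in ErbB2* and 1 in WT cells, and 0 fell. Of the 3 drug-export genes 2 rose in each line and 0 fell. The interaction was called below 0 for ABCC5 (-0.79, adjusted p = 0.012), ABCB6 (-0.83, adjusted p = 0.0206) and AKR7A2 (-0.59, adjusted p = 0.00779). In these lists it was called above 0 for 0 genes.

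Known NRF2 targets other than the members were more often called higher than lower in the 4 comparisons of lines and cultures. Of 26 such genes 23 were tested. Between the lines 7 rose and 0 fell in 2D, where 13.1% of all genes were called and 7.78% rose, with NQO1, a quinone reductase, at 12.72 to 13.01 in ErbB2* and 12.05 to 12.33 in WT cells (log2 change 0.67, SE 0.0782, adjusted p = 9.26e-07). EPHX1 (0.73, adjusted p = 0.0301), CBR3 (0.71, adjusted p = 0.014) and GSR (0.59, adjusted p = 0.0266) were the others with the largest changes. In 3D 11 rose and 2 fell, where 22.3% of all genes were called and 11.6% rose, led by HMOX1, the haem oxygenase (1.76, adjusted p = 9.85e-05), FTL, the ferritin light chain (1.76, adjusted p = 0.0142), TXNRD1, a thioredoxin reductase (1.73, adjusted p = 4.64e-11) and CBR3, a carbonyl reductase (1.65, adjusted p = 1.35e-06). The FTL value was 0.89 without WT 3D replicate 5 (adjusted p = 1.54e-08), whose FTL signal of 9.66 lay below 13.91 to 14.06 on the other WT 3D arrays. In 2D the FTL change of 1.13 was not called with that array in the fit (adjusted p = 0.146), although the ErbB2* and WT arrays did not overlap, and was called without it (adjusted p = 4.62e-11).

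In 3D against 2D 14 of the 23 rose and 0 fell in ErbB2* cells, and 11 rose and 1 fell in WT cells, where 22.4% and 29.6% of all genes were called and 10.3% and 14.3% rose. Without WT 3D replicate 5 the counts were 17 higher and 1 lower in ErbB2* cells and 17 and 1 in WT cells, and between the lines 10 rose and 0 fell in 2D and 12 rose and 3 fell in 3D. In these 4 comparisons, in the same order, 36.3%, 33.7%, 23.2% and 27.7% of all genes were then called. HMOX1 rose by 2.93 in ErbB2* cells (adjusted p = 3.62e-08), TXNRD1 by 1.23 (adjusted p = 7.66e-09), and SLC7A11, the cystine transporter, by 2.71 (adjusted p = 7.20e-11). SLC7A11 also rose by 2.64 in WT cells (adjusted p = 2.44e-10). Its probe was above background on 4 of 6 ErbB2* 2D and 2 of 6 WT 2D arrays, so both sizes depend on 2D signals near background. ALDH3A1, an aldehyde dehydrogenase, rose by 2.24 in ErbB2* (adjusted p = 1.55e-11) and by 1.66 in WT cells (adjusted p = 5.18e-09). CBR3 fell in WT cells by 1.46 (adjusted p = 8.08e-06), and GPX2 rose at least 1.95-fold (adjusted p = 1.16e-04). The interaction passed above 0 for 5 targets and below 0 for 3 (6 and 5 without that array). Of all genes 15.1% were called in the interaction, or 21.5% without that array. HMOX1 (1.55, adjusted p = 0.0113) and TXNRD1 (1.13, adjusted p = 1.49e-05) had the larger culture change in ErbB2* cells, the opposite sign to AKR1B10, AKR1C2 and AKR1C3. The 3 targets with the sign of these reductases were GPX2 (-1.23, adjusted p = 0.0121), whose probe was below background on every ErbB2* 2D and WT 2D array, PIR (-0.74, adjusted p = 0.0252) and GCLC (-0.50, adjusted p = 0.0178), the last 2 named after their values were seen.

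The median log2 changes of the 23 targets were 0.24, 0.38, 0.41 and 0.52 between the lines in 2D, between the lines in 3D, between cultures in ErbB2* cells and between cultures in WT cells, beside medians of 0.01, 0.04, -0.02 and -0.06 over all genes. Among 6 tested NRF2 regulators, NFE2L2, named here as the gene of NRF2 itself and outside the rule for named genes, was not called in any of the 5 comparisons, with -0.06 (adjusted p = 0.835) between the lines in 2D and -0.21 (adjusted p = 0.181) in 3D. Without WT 3D replicate 5 the 3D value was -0.29 and passed narrowly (adjusted p = 0.0485). SQSTM1, which binds KEAP1, rose between the lines by 0.52 in 2D (adjusted p = 0.0436) and by 0.98 in 3D (adjusted p = 2.59e-04). MAFG, a small MAF partner of NRF2, rose by 1.05 in 3D (adjusted p = 0.0164), or by 0.63 without WT 3D replicate 5 (adjusted p = 0.0196).

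**Figure D4:**
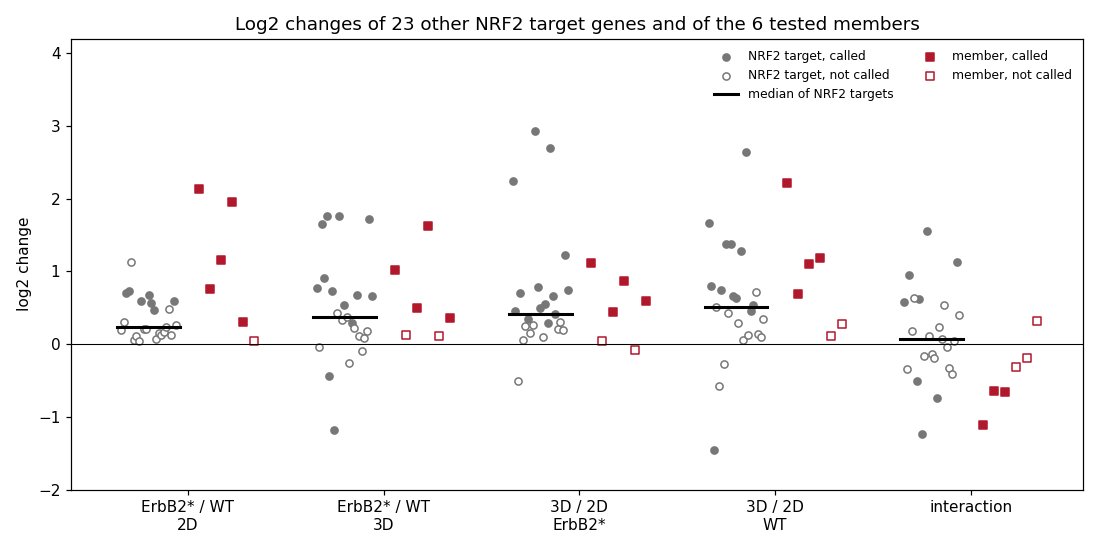
Log2 changes of 23 NRF2 target genes (grey circles, bar at their median) and of the 6 tested members (red squares) in 4 comparisons and the interaction; filled symbols passed an adjusted p of 0.05. Targets lie mostly above 0 in the first 4 columns, with medians from 0.24 to 0.52, and in the interaction the called members lie between -1.11 and -0.64 while the called targets lie on both sides of 0, from GPX2 at -1.23 to HMOX1 at 1.55.

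Enzymes that work beside the members were mixed in direction between the lines. Their counts stand beside 13.1% of all genes called between the lines in 2D, 22.3% in 3D, and 22.4% and 29.6% between cultures in ErbB2* and WT cells. Of 13 other tested carbonyl and aldehyde enzymes, 3 rose and 3 fell between the lines in 2D, and 5 rose and 4 fell in 3D. With 3D culture 5 of them rose and 0 fell in ErbB2* cells, and 6 rose and 2 fell in WT cells. DHRS3, which reduces retinal as AKR1B10 does, fell by 1.22 in 2D (adjusted p = 1.88e-06) and by 2.20 in 3D (adjusted p = 2.01e-10) in ErbB2* against WT cells. In 3D against 2D DHRS3 rose by 3.14 in ErbB2* (adjusted p = 1.93e-13) and by 4.12 in WT cells (adjusted p = 5.76e-15). Of 15 tested steroid and prostaglandin genes, 2 rose and 1 fell between the lines in 2D, and 3 rose and 3 fell in 3D. With 3D culture 6 of them rose and 1 fell in ErbB2* cells, and 5 rose and 1 fell in WT cells. HSD11B1, which regenerates cortisol, rose between the lines by 1.77 in 2D (adjusted p = 8.39e-09) and 3.28 in 3D (adjusted p = 3.82e-13). Its probe was above background on all 12 ErbB2* arrays but on 1 of 5 WT 3D and 4 of 6 WT 2D arrays, so these sizes depend on WT signals near background. HSD17B2, which oxidises the testosterone that AKR1C3 can form, fell between the lines by 0.78 in 2D (adjusted p = 0.00105) and 2.10 in 3D (adjusted p = 1.14e-09).

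HSD17B2 also rose with 3D culture, by 4.27 in ErbB2* cells (adjusted p = 1.76e-15) and by 5.58 in WT cells (adjusted p = 1.82e-16). Of 14 tested conjugation enzymes, whose products ABCC pumps can carry, 3 rose and 2 fell between the lines in 2D, and 1 rose and 4 fell in 3D. GSTA4, a glutathione transferase for lipid aldehydes, rose by 1.07 between the lines in 2D (adjusted p = 1.60e-04) and, with 3D culture, by 0.89 in ErbB2* (adjusted p = 8.10e-04) and 2.17 in WT cells (adjusted p = 8.23e-09). With 3D culture 3 of the 14 rose and 2 fell in ErbB2* cells, and 8 rose and 1 fell in WT cells.

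Markers of cell identity moved with the line. The list for basal mammary epithelium also holds CDH1 and EPCAM, which are not limited to basal cells. All 8 measured markers of this list were detected on 23 arrays, and 8 of 8 fell in ErbB2* against WT cells in 2D and 7 of 8 in 3D. Of the 10954 tested genes, 13.1% were called in 2D (584 genes lower) and 22.3% in 3D (1174 lower). The summed normalised signal of these 8 markers, taken off the log scale, was 5753 to 6970 in ErbB2* 2D against 13508 to 18140 in WT 2D arrays. In 3D it was 6945 to 9358 in ErbB2* against 14451 to 17168 in WT arrays. The fibroblast list had 4 of 6 genes above background on at least 5 arrays, with sums of 9263 to 10802 in ErbB2* 3D, 5525 to 6079 in ErbB2* 2D, 2671 to 3022 in WT 3D and 3356 to 3579 in WT 2D arrays, and COL1A2 was detected on 0 arrays. DCN alone made up 89.9% to 98.2% of that sum, while COL1A1 averaged 5.09 in ErbB2* 3D against 6.09 in WT 3D cells on the log2 scale (adjusted p = 0.012). The adipocyte list had 3 of 5, with sums of 1757 to 2647, 340.5 to 435.8, 159.5 to 302.7 and 159.3 to 216.9 in the same order of groups, and ADIPOQ and PLIN1 were detected on 0 arrays. The leukocyte list had 3 of 7 (CD14, CD68 and MS4A1), with sums of 2067 to 2268, 2268 to 2937, 1425 to 2593 and 925.8 to 1223 in that order, WT 2D being lowest as for AKR1B10, and ITGAM was detected on 0 arrays and PTPRC on 1. Of the luminal list 4 of 7 passed, and ESR1, PGR and KRT19 were detected on 0 arrays. Between the lines 1 of the 4 rose and 0 fell in 2D, and 2 rose and 0 fell in 3D. Of the hepatocyte list, a cell type with high AKR1C and ABCC2, 1 of 7 genes with a probe passed (SERPINA1), and ALB, APOB, CYP3A4 and CYP2E1 were detected on 0 arrays. The part of these marker shifts in the members' changes was not tested.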

How the data were processed

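RNA from 23 samples was purified with RNeasy, amplified and biotin-labelled with the TotalPrep kit, per the labels' protocols, and read on single-colour Illumina bead arrays, 1 per sample. For every probe and array the authors deposited an average bead intensity with its detection p-value, per the file headers. Another deposited table held the authors' normalised values, read here as log2 values since their slope against each array's log2 scanner signal was 0.948 to 1.02 on 22 arrays; they served as an alternative. In WT 3D replicate 5 the slope was 0.671. The rank correlation of its deposited values with its scanner signals was 0.503, against 1 on the other arrays. Its deposited values thus do not follow its scanner signals, and the alternative from the deposited values carries that mismatch. Neither the array software nor the authors' normalisation is stated in the labels or headers. The number of arrays limits the precision.

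Groups and replicate numbers came from the sample titles. Scanner intensities of 48803 probes were corrected by normexp with control-probe moments inferred from the detection p-values (offset 16), quantile normalised and taken to log2 (R 4.3.3 with limma 3.58.1; files were read by data.table, version 1.17.8). Probes with detection p under 0.05 on at least 5 arrays were kept (17689, of which 14612 had 1 gene symbol), and each gene was represented by its brightest passing probe (10954 genes). Of all probes 28098 had 1 symbol in the platform annotation, 13 had several and 20692 had none listed. A means model of the 4 groups (lmFit and eBayes, with 19 residual degrees of freedom) gave the 5 comparisons and the added contrast, two-sided, with Benjamini-Hochberg adjustment over all 10954 genes and a threshold of 0.05. Other passing probes of the members were read from a fit over all 17689 passing probes. The script was tested on simulated data.

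A probe below background on every array of a group has only a bound there: the fold is given as at least the brighter group's mean over the dimmer group's, in which each array counts at its lowest detected signal where the probe lies below that. From each pathway list at most 4 NRF2 targets, and 2 genes of other lists, were named per comparison, by size of change among those past the threshold; the nearest genes in pattern, the members and ERBB2 were named as described. Members and lists were chosen with earlier results of these data known. Sequences came from RefSeq promoter windows (Python 3.11.15, Biopython 1.88); the identity of AKR1C proteins was not computed, as protein sequences were not used here. Alternatives covered background correction, normalisation, filters, probe summary, array weights, the groups fitted, a replicate block and leaving out each array from the fit, after normalisation.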

Additional observations from a re-analysis of the deposited data

Results flagged for a closer look

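Of the members, 3 had a culture change that differed between the lines by the interaction test. The culture change in ErbB2* cells minus that in WT cells was -1.11 for AKR1B10, -0.64 for AKR1C2 and -0.66 for AKR1C3. Among the named NRF2 targets it was 0.95 for CBR3, 1.55 for HMOX1, 1.13 for TXNRD1, 0.58 for ALDH3A1 and -1.23 for GPX2, the last bounded by signals below background in WT 2D cells.

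Single arrays stood far from the rest of their group (Dixon's test at the 95% level) for 11 of 80 sets of values, 10 member probes and 10 named NRF2 targets in 4 groups each. By chance about 1 in 20 sets would be picked out. Of the 11, 6 were WT 3D replicate 5, the array of low quality. It was lowest for the second ABCC4 probe (ILMN_2194009) at 6.64, against 7.73 to 7.96 on the other WT 3D arrays. It was also lowest for EPHX1 (8.55), GSR (7.84), FTL (9.66) and GPX2 (4.74), and highest for ALDH3A1 (11.16).

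The other 5 were spread over the groups. For the ABCC4 probe used in the tests, WT 3D replicate 2 was highest at 8.61, against 8.03 to 8.15 on the other WT 3D arrays. In ErbB2* 2D replicate 1 the bright AKR1C2 probe was lowest at 14.58 and the dim AKR1C2 probe ILMN_1719154 highest at 5.51. EPHX1 was lowest in ErbB2* 3D replicate 2 (10.38) and TXNRD1 in WT 2D replicate 1 (9.76).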

How the results depend on the processing

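Of 474 recomputed changes of single members under 16 alternative settings, 445 kept their direction and side of the threshold, as did 680 of 690 with 1 array left out. The sign turned in 8 and 2 of them, none called under either setting. Under median scaling these were the culture changes of ABCC3 (-0.31) and ABCC4 (-0.22) in WT cells and the interactions of ABCC2 (0.0728) and ABCC3 (0.107). The ABCC2 interaction was 0.0809 from the deposited values. Scaling to the probes detected on every array turned AKR1C2 between the lines in 3D (-0.27) and ABCC4 in 2D (-0.0293). ABCC4 in 2D was also -0.0757 with WT 2D arrays 1, 5 and 6 alone and -0.0191 to 0.107 with any 1 array left out. The number of members called stayed at 5 between the lines in 2D, at 4 for each culture change and at 3 for the interaction with any 1 array left out, and was 3 to 4 between the lines in 3D, where 8 of the 23 settings lost ABCC4 (0.32 to 0.47 over all 23, adjusted p 0.00584 to 0.0888). Scaling each array to its median called 0 members for the culture change in ErbB2* cells and 0 for the interaction. This scaling moved the median of all genes by 0.19 and 0.36 between the lines in 2D and 3D and by -0.12 and -0.29 between cultures in ErbB2* and WT cells. It also lost ABCC3 between the lines in 2D (0.57, adjusted p = 0.395), ABCC4 between the lines in 3D (0.90, adjusted p = 0.089) and ABCC2 for culture in WT cells (0.64, adjusted p = 0.200). Added after seeing the data, median scaling without WT 3D replicate 5 kept all of these calls but ABCC4 (0.38, adjusted p = 0.156).

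ABCC4 between the lines in 3D also missed the threshold when the other groups were left out of the fit (adjusted p = 0.110), with the replicate number as a block (0.34, adjusted p = 0.0701) and with its probes averaged (0.34, adjusted p = 0.0688). The deposited values called ABCC4 for culture in WT cells (0.18, adjusted p = 0.0402). Scaling to the probes detected on every array, without WT 3D replicate 5, called AKR1C2 for culture in ErbB2* cells (0.26, adjusted p = 0.0335) and lost ABCC4 between the lines in 3D (0.34, adjusted p = 0.0536). With WT 2D arrays 2, 3 and 4 alone ABCC3 missed the threshold in 2D (0.29, adjusted p = 0.0503), and with arrays 1, 5 and 6 alone no call of a member was lost. The causes were not tested. The 33 same-numbered pairs of arrays had correlations of -0.19 to 0.18, 6 of them over 0.1. Those included replicates 2 to 5 of WT 2D with WT 3D (0.14 to 0.18), while replicate 1 gave -0.12. Pairs of unlike number were not set beside them, so pairing by replicate number was not tested. The replicate block changed no other call of a member. A slide block was not run, since neither headers nor labels give the slide.

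Counts of all genes moved more. Between the lines in 2D, 1436 genes were called (852 higher, 584 lower), against 633 (482 higher, 151 lower) under median scaling, 2737 from the deposited values, 2373 with array weights, 2203 with only the 2 groups, 2543 without WT 3D replicate 5 and 855 with WT 2D arrays 1, 5 and 6 alone. In 3D it was 2441 (1267 higher, 1174 lower), against 1280 (1141 higher, 139 lower) under median scaling and 1545 with only the 2 groups. For culture in ErbB2* cells it was 2454 (1133 higher, 1321 lower), against 892 (312 higher, 580 lower) under median scaling, 4091 from the deposited values, 4178 with array weights, 3987 with only the 2 groups and 3971 without that array. In WT cells it was 3246 (1571 higher, 1675 lower), against 1265 (202 higher, 1063 lower) under median scaling, 1797 with only the 2 groups and 1886 with WT 2D arrays 1, 5 and 6 alone. For the interaction it was 1649 (737 higher, 912 lower), against 329 (247 higher, 82 lower) under median scaling, 2755 from the deposited values, 2570 with array weights and 900 with those 3 WT 2D arrays. Scaling to the probes detected on every array split the calls between the lines as 657 higher and 767 lower in 2D and 929 higher and 1363 lower in 3D. Median scaling without WT 3D replicate 5 gave 2691 higher and 487 lower between the lines in 2D, 920 higher and 2561 lower for culture in ErbB2* cells, and 522 higher and 1403 lower for the interaction.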
